A study of Mus musculus with 6 samples.

Results

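The genes described here are 10 markers and effectors of macrophage activation, namely Nos2, Arg1, Acod1, Ptgs2, Chil3, Spp1, Tgfb1, Il10, Ms4a4a and Cd163. They were taken by symbol from the 21899 genes of the expression table, where all 10 were listed. They were followed in 6 samples of Lewis lung carcinoma tissue, with 2 samples to a group (Laser, PC-La and SePC-La). Lewis lung carcinoma (LLC) is a transplantable mouse lung tumor line, and the cells used here (LLC-luc) carry luciferase. They were placed under the skin of male C57BL/6 mice of 18 to 20 g, whose age is not given in the labels. All 3 groups were irradiated, for 10 min at 620 nm per the labels. The PC-La group had received phycocyanin (PC), a light-absorbing protein of Spirulina, and the SePC-La group selenium-enriched phycocyanin (SePC), each into the tumor once in 5 days and 4 h before the laser. The Laser group received saline in its place per the methods of the study, so that no group here was free of laser light. The paper differs from the labels in the wavelength and in the interval and site of injection, and the labels were followed. Its methods name 2 sequenced samples per group, as the labels do, while its results speak of triplicates. A sample is called a tumor below, although the labels do not say whether the samples of a group came from separate tumors or mice, and p-values therefore measure only the spread between these samples.

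Macrophages take on different states according to the signals around them. Bacterial products and interferon gamma induce the classical state, with nitric oxide made from arginine by the enzyme encoded by Nos2, itaconate made by the product of Acod1, and prostaglandins made through the cyclooxygenase encoded by Ptgs2. Interleukin-4, interleukin-10 and glucocorticoids favour alternative or regulatory states, marked by arginase (Arg1), the chitinase-like protein Ym1 (Chil3) and the scavenger receptor Cd163. In tumors the states mix, and cells that carry Arg1, Spp1 and inflammatory genes at the same time are common. Most of these genes are not made by macrophages alone. Neutrophils, fibroblasts and carcinoma cells can carry several of them, and in RNA from whole tumor tissue a change in the number of cells of a type and a change in RNA per cell cannot be told apart.

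Expression was given as FPKM, the fragments counted on a gene divided by the length of its exons and by the depth of the library. The reads recovered from these values came to between 14447792 and 17649489 per tumor. Macrophages were well represented in every tumor. None of 16 macrophage markers was at 0, and their summed level was 2032 and 2820 FPKM (Laser), 2578 and 2694 (PC-La) and 1365 and 2077 (SePC-La). Lyz2 alone made up 1409 FPKM of the sum in Laser replicate 2 and 599 in SePC-La replicate 1, while Cx3cr1 had 0.264 and 0.399 there. The 10853 genes whose mean FPKM over the tumors was 1 or more were compared with limma on log2(FPKM + 1), on which the fold changes of low genes come out too small. Log2 fold changes are given with the standard error (SE) of that fit. A gene was said to change when it met the criterion of the study's methods, an absolute log2 fold change over 1 with an unadjusted p under 0.05. After Benjamini-Hochberg adjustment over all genes tested, limma gave no gene a p under 0.05 in any comparison, while 627, 1318 and 2637 genes had an unadjusted p under 0.05 for PC-La against Laser, SePC-La against Laser and SePC-La against PC-La. Of the 10 genes, 9 passed the filter on low values and Il10 did not.

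The most abundant of the 10 was Spp1, with a mean of 917 FPKM over the 6 tumors and the 28th highest mean of all genes listed. Il10 was the least abundant, at 0.590 FPKM. The tumors did not vary alike. Tgfb1 differed by 1.42 times between its highest and its lowest tumor and Spp1 by 1.92 times, while Cd163 differed by 25.7 times and Chil3 by 31.3 times. The replicates of Laser were farthest apart. On the log2 scale they differed by a median of 1.08 over the 10 genes, against 0.21 in PC-La and 0.25 in SePC-La. Laser replicate 2 held the highest Arg1, Chil3, Ms4a4a and Cd163 of the 6 tumors and the lowest Nos2, Ptgs2, Spp1, Tgfb1 and Il10. This tumor also had the highest skeletal muscle signal, with the 8 muscle markers summing to 147 FPKM against between 1.55 and 21.7 in the other tumors. Of the 7 tested, 6 were lower in PC-La and in SePC-La than in Laser at the criterion, beside 0.424% and 0.138% of all genes tested. With single tumors left out, the log2 fold change of Ckm ran from -2.97 to -0.72 in PC-La and from -2.89 to -0.64 in SePC-La. Laser replicate 2 also had the lowest neutrophil signal, 44.2 FPKM over 12 markers. The part of these cell types in the values was not tested.

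**Figure D1:**
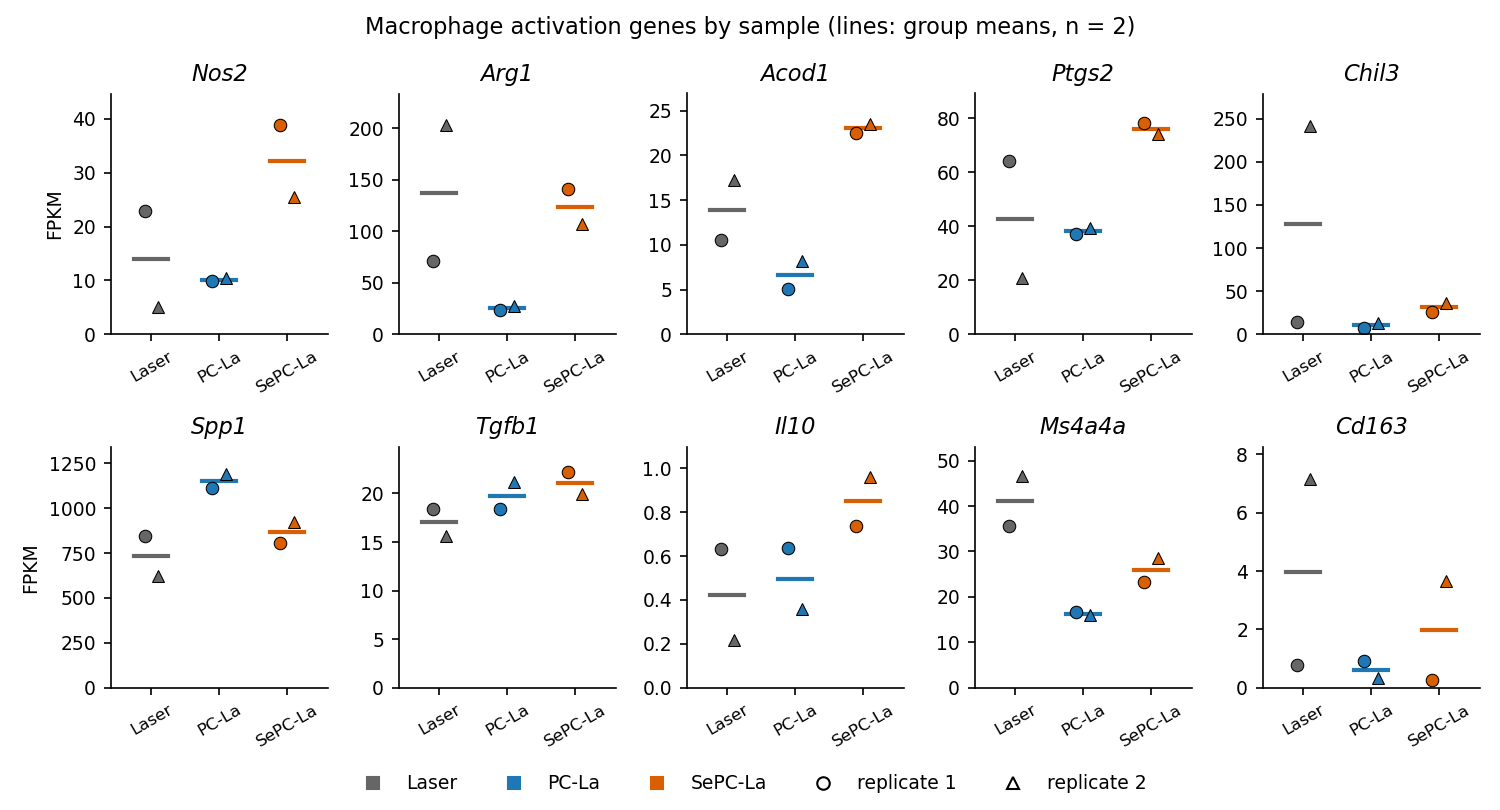
FPKM of the 10 genes (vertical axes, each from 0) in each of the 6 tumors, by group on the horizontal axes. Points are tumors (circle, replicate 1; triangle, replicate 2) and lines are group means. The PC-La tumors lie close together for most genes, while Laser replicate 2 stands far from Laser replicate 1 for Nos2, Arg1, Ptgs2, Chil3 and Cd163.

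Before the values are taken gene by gene, the sequences upstream of 3 of the genes are shown, since Acod1 and Ptgs2 both stood higher in SePC-La than in PC-La and Ms4a4a stood lower in both treated groups than in Laser. RefSeq promoter windows were at hand for 7 of the 10 genes, namely Acod1, Chil3, Spp1, Tgfb1, Ptgs2, Ms4a4a and Cd163. The 250 bases before the start are printed 5′ to 3′ on the strand of the gene, from build GRCm38.p6, with matches to the motifs listed after them in capitals. They lie at chr14:103046762-103047011 (plus strand) for Acod1, chr1:150099781-150100030 (plus strand) for Ptgs2 and chr19:11375238-11375487 (plus strand) for Ms4a4a.
Acod1: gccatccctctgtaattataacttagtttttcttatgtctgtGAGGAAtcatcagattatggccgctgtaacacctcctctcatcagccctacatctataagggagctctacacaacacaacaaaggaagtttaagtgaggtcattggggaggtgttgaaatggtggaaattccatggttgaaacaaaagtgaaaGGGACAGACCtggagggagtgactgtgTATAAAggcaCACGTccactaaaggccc
Ptgs2: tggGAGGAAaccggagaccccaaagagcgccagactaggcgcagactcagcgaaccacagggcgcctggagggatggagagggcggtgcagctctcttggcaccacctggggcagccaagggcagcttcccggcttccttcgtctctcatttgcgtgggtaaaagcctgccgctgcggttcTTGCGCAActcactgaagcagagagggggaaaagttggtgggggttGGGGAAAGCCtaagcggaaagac
Ms4a4a: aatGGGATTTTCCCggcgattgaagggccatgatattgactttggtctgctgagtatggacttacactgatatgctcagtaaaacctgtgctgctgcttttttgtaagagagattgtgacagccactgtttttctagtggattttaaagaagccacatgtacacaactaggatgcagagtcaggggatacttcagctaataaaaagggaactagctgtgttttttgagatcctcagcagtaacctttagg

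The letters searched, on both strands, were GGG followed after 5 bases of any kind by CC for NF-kB, TTGCNNAA for C/EBP, TGANTCA for AP-1, TTCNNNGAA for GAS (the interferon gamma element), TTC and GAA set 4 bases apart for STAT6, ACGTG for the core of the hypoxia element, GAGGAA for PU.1 and TATAAA for the TATA box. The loose NF-kB letters were found in all 3 windows, but they also stood in 45.8% of the 32817 mouse windows of the same length. The C/EBP letters, found in Ptgs2 from base 69 to base 62 before the start, stood in 9.57% of all windows. Acod1 held the PU.1 letters, the TATA letters and the hypoxia core, which stood in 23.3%, 12.4% and 16.6% of all windows. Ptgs2 held the PU.1 letters as well. The STAT6 and AP-1 letters were not in any of the 8 windows of the 7 genes. Some matches overlap each other, as the 2 NF-kB matches of Ms4a4a do. A match is a description of the sequence and not a site shown to be bound.

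To examine the effect of plain phycocyanin, PC-La was compared with Laser. Arg1 and Ms4a4a fell in PC-La, and none of the 10 genes rose. Of the 9 genes tested, 2 were thus lower at the criterion, where 0.424% of all genes tested were lower and 0.866% higher (1.29% in all). In 4 of the 9 genes both PC-La tumors lay below both Laser tumors, and in 1 above, where 21.6% and 20.4% of all genes tested did so (42% in all). The median log2 fold change of the 9 genes was -0.96, where that of all genes lay at 0 to 2 decimals. By limma 4 of the 9 had an unadjusted p under 0.05 (Arg1, Ms4a4a, Acod1 and Spp1), beside 5.78% of all genes.

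Selenium-enriched phycocyanin was compared with laser alone in the same way. None of the 9 genes met the criterion, which 0.682% of all genes tested did (0.544% higher and 0.138% lower). The balance of all genes rested on single samples, as 59 higher and 15 lower genes became 50 and 159 without Laser replicate 2, and 61 and 92 without SePC-La replicate 2. The limma fit gave an unadjusted p under 0.05 to 2 of the 9, Acod1 and Ms4a4a, where 12.1% of all genes had such a p. Both SePC-La tumors were above both Laser tumors in 4 genes (Nos2, Acod1, Tgfb1 and Ptgs2) and below them in 1 (Ms4a4a), where the share of all genes was 15% and 25.6% (40.6% in all).

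The difference between the treatments was addressed by SePC-La against PC-La. Arg1 and Acod1 were higher in SePC-La, 2 of the 9 genes, where 1.18% of all genes tested were higher at the criterion and 1.8% lower (2.98% in all). These shares are 128 genes higher and 195 lower, and after median-ratio scaling of the samples they became 158 and 154. Both SePC-La tumors lay above both PC-La tumors in 6 genes (Nos2, Arg1, Acod1, Ptgs2, Chil3 and Ms4a4a) and below them in Spp1 alone, where 26% (higher) and 39.5% (lower) of all genes tested did not overlap (65.5% in all). By limma 3 of the 9 had an unadjusted p under 0.05 (Arg1, Acod1 and Ms4a4a), beside 24.3% of all genes. The median log2 fold change of the 9 genes was 0.97, beside -0.07 over all genes. These 3 comparisons share their samples, so that a low PC-La value enters both the first and the third.

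**Figure D2:**
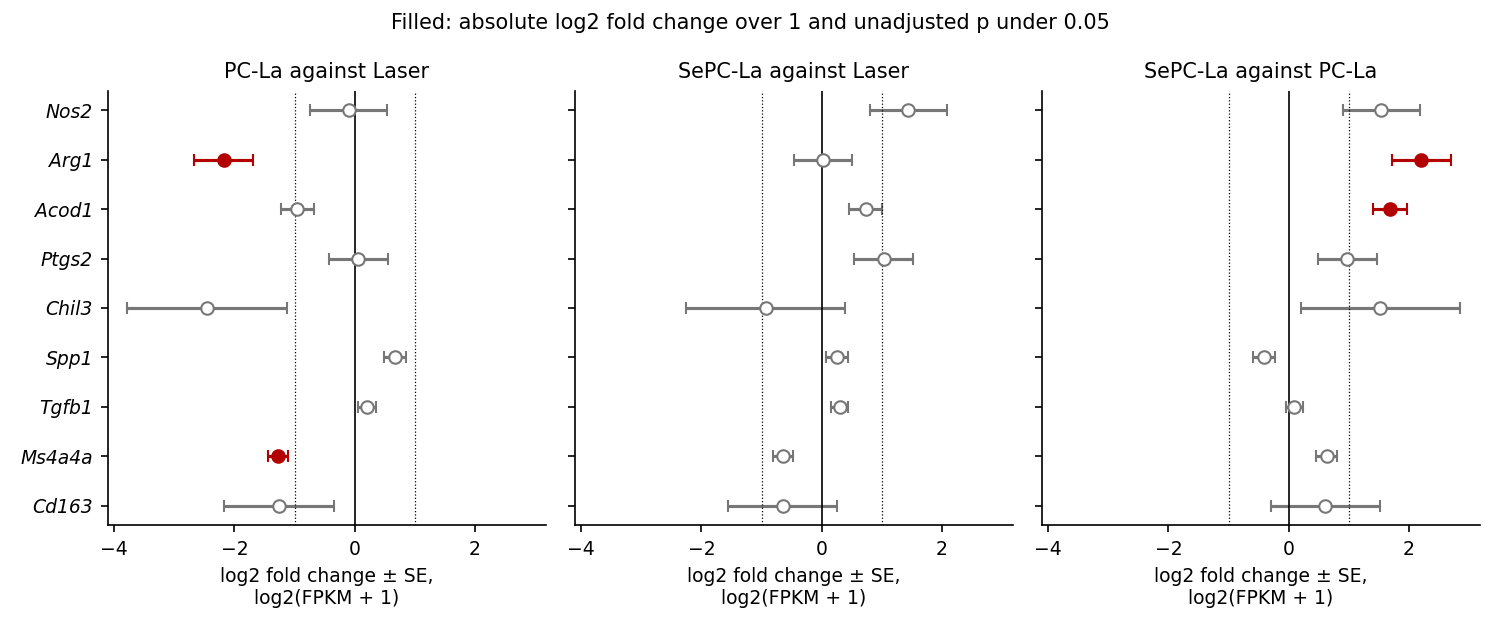
Log2 fold changes of the 9 genes tested on the log2(FPKM + 1) scale (horizontal axes) in the 3 comparisons, with the standard error of the limma fit as bars. Filled points met the criterion, which were Arg1 and Ms4a4a for PC-La against Laser and Arg1 and Acod1 for SePC-La against PC-La. The dotted lines stand at a log2 fold change of -1 and 1.

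In the fit of all 6 tumors, the wide spread of the Laser group also set the error of SePC-La against PC-La. When only the 4 tumors of PC-La and SePC-La were fitted, 4 of the 9 genes met the criterion, Arg1, Acod1, Nos2 and Chil3, where 4.14% of all genes tested did. In that fit the adjusted p from limma was under 0.05 for 5 of the 9 genes, beside 5.87% of all genes tested. Over all alternatives that kept both tumors of each group, this fit included, the limma adjusted p ran from 0.0154 to 0.233 for Arg1, from 0.026 to 0.347 for Ptgs2, from 0.0305 to 0.199 for Acod1, from 0.0323 to 0.281 for Nos2 and from 0.0458 to 0.629 for Chil3, the lower value being that of the 4-tumor fit. The fold changes themselves were those of the 6-tumor fit, and the fit rests on 2 tumors per group.

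Of the effector enzymes, Arg1 (chr10:24915221-24927484, minus strand, GRCm38) encodes arginase 1, which turns arginine into ornithine and urea and so draws on the substrate of nitric oxide synthesis. Its FPKM was 71.2 and 204 (Laser), 23.8 and 28.0 (PC-La) and 141 and 107 (SePC-La). Both PC-La tumors were below every other tumor, and the SePC-La tumors lay between the Laser tumors. The log2 fold change of PC-La against Laser was -2.18 (SE 0.49, limma adjusted p = 0.638), and it ran from -2.93 with Laser replicate 1 left out to -1.43 with replicate 2 left out, meeting the criterion in each case. Against PC-La, SePC-La was higher by 2.21 on the log2 scale (SE 0.49, limma adjusted p = 0.126), between 2.01 and 2.40 with each of the 4 tumors left out in turn. SePC-La and Laser had a log2 fold change of 0.03, with a 95% interval from -1.19 to 1.24 that leaves changes of more than 2-fold in either direction possible.

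Nos2 (chr11:78920787-78960254, plus strand) encodes the inducible nitric oxide synthase, the enzyme of nitric oxide release in classical activation. Its FPKM was 22.8 and 5.03 (Laser), 9.93 and 10.4 (PC-La) and 38.9 and 25.5 (SePC-La). Both SePC-La tumors were above all others, and the PC-La tumors lay between the Laser tumors. SePC-La had a log2 fold change of 1.44 against Laser (SE 0.65, limma adjusted p = 0.437) and 1.54 against PC-La (SE 0.65, limma adjusted p = 0.222), and neither met the criterion in the fit of all 6 tumors, while the second did in the 4-tumor fit. Set against Laser replicate 2 alone the first was 2.43, and against Laser replicate 1 alone 0.45. PC-La against Laser changed sign with the Laser tumor used, from 0.89 against replicate 2 alone to -1.09 against replicate 1 alone.

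The products of Arg1 and Nos2 compete for arginine, and their ratio does not depend on how the tumors were scaled. The FPKM of Arg1 was 3.12 and 40.5 times that of Nos2 in Laser, 2.39 and 2.69 times in PC-La, and 3.62 and 4.19 times in SePC-La. Laser replicate 2 stood apart with high Arg1 and low Nos2, while the other 5 tumors kept within a range of 2.39 to 4.19. Across these 5 tumors both genes were low in PC-La and high in SePC-La. The ratios of SePC-La were above those of PC-La and below that of Laser replicate 2.

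**Figure D3:**
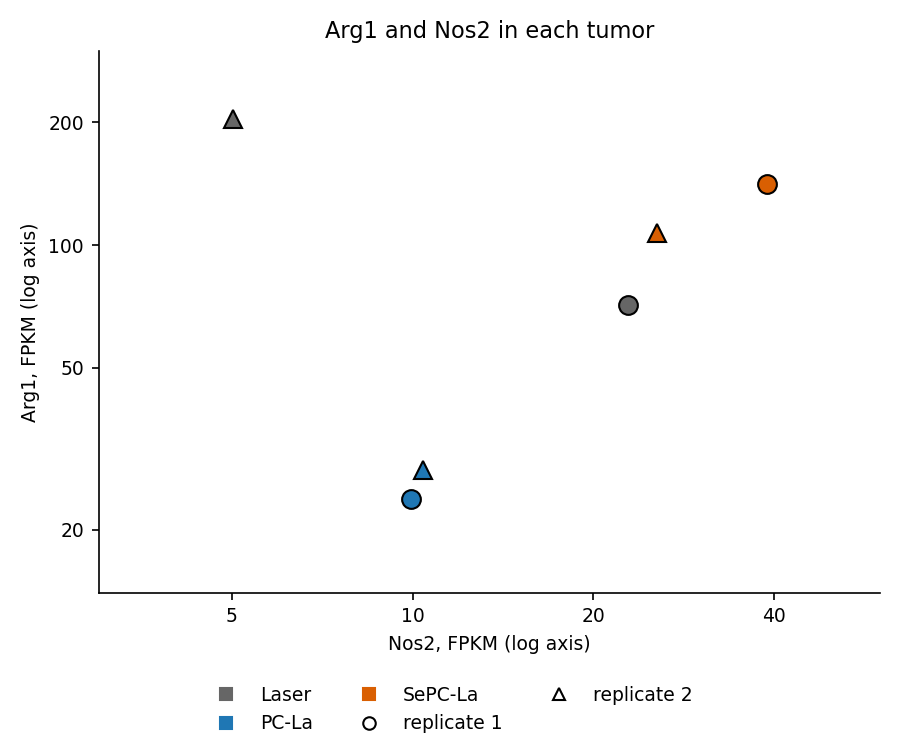
FPKM of Arg1 (vertical log axis) against FPKM of Nos2 (horizontal log axis) in the 6 tumors, coloured by group (circle, replicate 1; triangle, replicate 2). Laser replicate 2 lies alone at high Arg1 and low Nos2, with a ratio of 40.5, and the other 5 tumors have ratios between 2.39 and 4.19.

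Acod1 (chr14:103046977-103056573, plus strand) encodes the mitochondrial enzyme that makes itaconate from an intermediate of the citric acid cycle. Its FPKM was 10.6 and 17.2 (Laser), 5.07 and 8.20 (PC-La) and 22.5 and 23.5 (SePC-La). The 3 groups did not overlap, with PC-La lowest and SePC-La highest. SePC-La exceeded PC-La by 1.68 on the log2 scale (SE 0.28, limma adjusted p = 0.123), between 1.38 and 1.98 with each of the 4 tumors left out. PC-La against Laser was -0.96 (SE 0.28, limma adjusted p = 0.749), short of the criterion. It met the criterion at -1.05 with a pseudocount of 0.1, at -1.28 without Laser replicate 1 and at -1.26 without PC-La replicate 2. SePC-La against Laser was 0.73 (SE 0.28, limma adjusted p = 0.391) and reached 1.06 without Laser replicate 2.

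Ptgs2 (chr1:150100031-150108227, plus strand) encodes cyclooxygenase 2, the inducible first enzyme of prostaglandin synthesis. Its FPKM was 64.3 and 20.9 (Laser), 37.3 and 39.5 (PC-La) and 78.2 and 74.2 (SePC-La). Both SePC-La tumors were above all others, and their mean was 1.98 times that of PC-La. For SePC-La the log2 fold changes were 1.03 against Laser (SE 0.49, limma adjusted p = 0.452) and 0.97 against PC-La (SE 0.49, limma adjusted p = 0.276). Set against Laser replicate 2 alone the former was 1.82, and against replicate 1 alone 0.24. PC-La against Laser went from 0.85 to -0.73 in the same way, so that no direction can be given for it.

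Of the secreted products, Chil3 (chr3:106147554-106167564, minus strand) encodes Ym1, a chitinase-like lectin that marks alternatively activated macrophages and is also made by monocytes and neutrophils. Its FPKM was 14.2 and 242 (Laser), 7.72 and 13.1 (PC-La) and 26.3 and 36.3 (SePC-La). Laser replicate 2 was 17.0 times Laser replicate 1, and without it the highest tumors were those of SePC-La. PC-La against Laser had a log2 fold change of -2.45 (SE 1.32, limma adjusted p = 0.753). It came to -0.46 when Laser replicate 2 was left out. SePC-La against Laser was -0.93 (SE 1.32, limma adjusted p = 0.783) and turned to 1.07 without Laser replicate 2. SePC-La against PC-La was 1.52 (SE 1.32, limma adjusted p = 0.501), with non-overlapping groups. Chil4, a near-identical neighbour of Chil3 whose reads could be counted on either gene, was listed at 0 in all 6 tumors (it is named here after its values were seen), and the counts of Chil3 are uncertain to that extent.

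Spp1 (chr5:104435118-104441050, plus strand) encodes osteopontin, a secreted phosphoprotein that binds integrins and Cd44 and marks a class of tumor macrophages. Its FPKM was 847 and 621 (Laser), 1114 and 1192 (PC-La) and 806 and 924 (SePC-La). It was the only one of the 9 genes in which the PC-La tumors were above all others. PC-La stood 0.67 above Laser on the log2 scale (SE 0.18, limma adjusted p = 0.705), and ran from 0.44 to 0.89 when single tumors were left out. SePC-La against PC-La was -0.42 (SE 0.18, limma adjusted p = 0.224) and SePC-La against Laser 0.25 (SE 0.18, limma adjusted p = 0.588). None of these met the criterion.

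Tgfb1 (chr7:25687002-25705077, plus strand) encodes transforming growth factor beta 1, a cytokine that damps immune cells and is made by many cell types. It varied least of the 10. Its FPKM was 18.4 and 15.6 (Laser), 18.4 and 21.1 (PC-La) and 22.2 and 20.0 (SePC-La). The SePC-La tumors were above the Laser tumors by 0.30 on the log2 scale (95% interval -0.04 to 0.64). The intervals for PC-La against Laser (-0.14 to 0.55) and for SePC-La against PC-La (-0.25 to 0.43) also left out changes of 2-fold.

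Il10 (chr1:131019845-131024974, plus strand) encodes interleukin-10, an anti-inflammatory cytokine. Its reads numbered 13 and 5 (Laser), 13 and 7 (PC-La) and 14 and 22 (SePC-La), or 0.631 and 0.216, 0.635 and 0.357, and 0.740 and 0.962 FPKM. Both SePC-La tumors were the highest, but the exact 95% Poisson intervals, which cover counting error only, ran from 0.404 to 1.24 FPKM for SePC-La replicate 1 and from 0.336 to 1.08 for Laser replicate 1. Neighbours in this order were thus not told apart at this depth, while the interval of SePC-La replicate 2 (0.603 to 1.46 FPKM) lay above that of Laser replicate 2 (0.0702 to 0.505 FPKM). Without the filter on low values the log2 fold change was 0.39 for SePC-La against Laser (limma adjusted p = 0.564), 0.31 against PC-La (limma adjusted p = 0.426) and 0.08 for PC-La against Laser (limma adjusted p = 0.927).

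Of the surface proteins, Ms4a4a (chr19:11375523-11392790, plus strand) belongs to the membrane-spanning 4A family and is found on tissue and tumor macrophages. Its FPKM was 35.7 and 46.7 (Laser), 16.7 and 15.9 (PC-La) and 23.2 and 28.6 (SePC-La). The 3 groups did not overlap, with Laser highest and PC-La lowest. The log2 fold change of PC-La against Laser was -1.27 (SE 0.17, limma adjusted p = 0.406), between -1.46 and -1.09 with each tumor left out and past the criterion each time. SePC-La was -0.64 against Laser (SE 0.17, limma adjusted p = 0.376) and 0.63 against PC-La (SE 0.17, limma adjusted p = 0.134). The family has members with similar sequences, between which reads may have been split.

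Cd163 (chr6:124304656-124330527, plus strand) encodes the receptor through which macrophages take up haemoglobin bound to haptoglobin. Its FPKM was 0.792 and 7.17 (Laser), 0.902 and 0.343 (PC-La) and 0.279 and 3.66 (SePC-La), from 22 to 691 reads. A single tumor of Laser and a single tumor of SePC-La were high, and the groups overlapped in every comparison. The log2 fold change was -1.26 for PC-La against Laser (SE 0.91, limma adjusted p = 0.763) and -0.65 for SePC-La against Laser (SE 0.91, limma adjusted p = 0.78), and these became -0.17 and 0.45 without Laser replicate 2. Without Laser replicate 1 the former was -2.35 and met the criterion. SePC-La against PC-La was 0.61 (SE 0.91, limma adjusted p = 0.697) and became -0.32 without SePC-La replicate 2. The tumor with the highest Cd163, Laser replicate 2, had the highest skeletal muscle signal, and the one next to it, SePC-La replicate 2, had the highest adipocyte signal, 65.3 FPKM over 6 markers against at most 16.5 in the others. Lyve1, a gene that resident perivascular macrophages carry among other cells, was named after its values were seen. It was likewise highest in these 2 tumors, with 0.480 and 18.1 FPKM (Laser), 1.25 and 1.37 (PC-La) and 1.73 and 3.94 (SePC-La). The part of muscle and adipose tissue in these values was not tested.

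**Figure D4:**
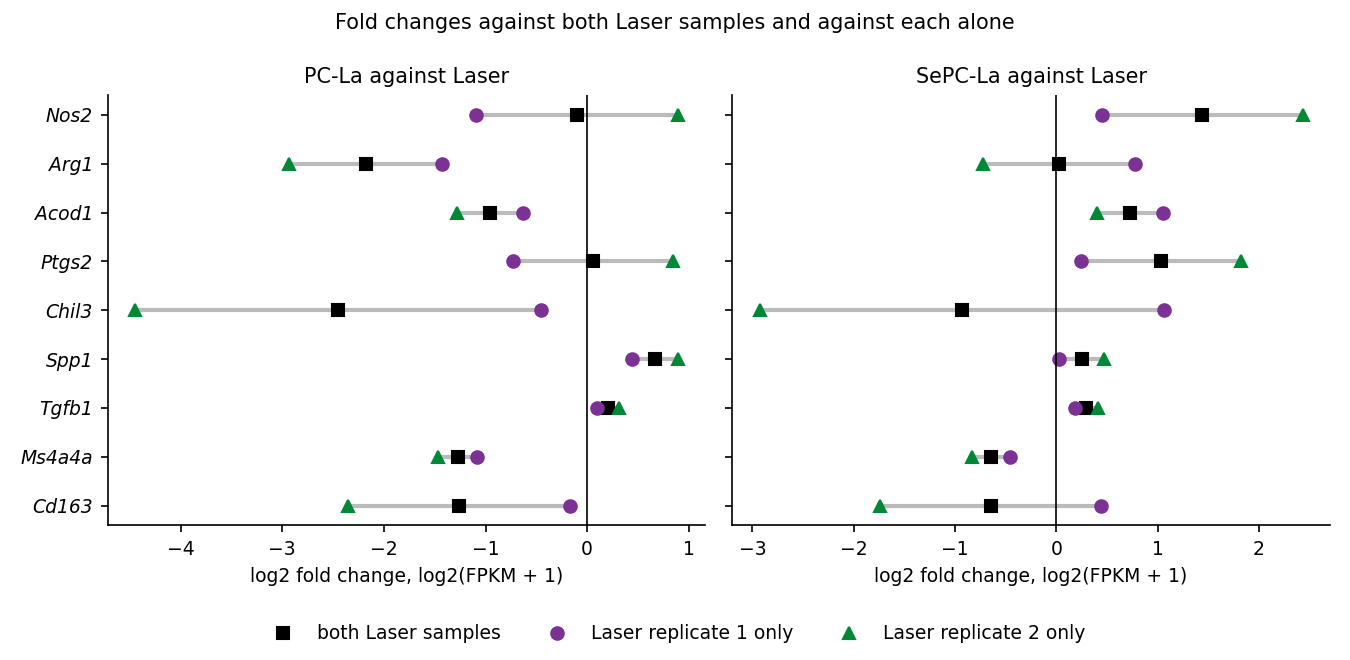
Log2 fold changes of PC-La (left) and SePC-La (right) against Laser for the 9 genes tested, with both Laser tumors (squares), Laser replicate 1 only (circles) and Laser replicate 2 only (triangles); the horizontal axes are on the log2(FPKM + 1) scale. Arg1 and Ms4a4a stay below 0 in PC-La, while Nos2 and Ptgs2 change sign in PC-La and Arg1, Chil3 and Cd163 do so in SePC-La.

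In PC-La set against Laser replicate 2 alone, Arg1 (-2.93), Chil3 (-4.45), Ms4a4a (-1.46), Acod1 (-1.28) and Cd163 (-2.35) were lower on the log2 scale. Ptgs2 (0.85), Spp1 (0.89), Nos2 (0.89) and Tgfb1 (0.32) were higher there. The use of Laser replicate 1 or 2 alone decided how many genes met the criterion against Laser. For PC-La, 5 of the 9 genes met it without Laser replicate 1, all lower (Arg1, Acod1, Chil3, Ms4a4a and Cd163), where 6.12% of all genes tested did. In that fit 5 of the 9 genes had a limma adjusted p under 0.05 (Arg1, Chil3, Ms4a4a, Ptgs2 and Spp1), beside 2.87% of all genes. Without Laser replicate 2, 3 genes met it, Arg1, Ms4a4a and Nos2, all lower, beside 0.746% of all genes. For SePC-La, 3 genes met it without Laser replicate 1, Nos2 and Ptgs2 higher and Chil3 lower, and 2 without Laser replicate 2, Acod1 and Chil3, both higher, beside 2.33% and 1.93% of all genes. The log2 fold changes of the former were 2.43 (Nos2), 1.82 (Ptgs2) and -2.93 (Chil3). Chil3 thus met the criterion in opposite directions. In these fits a lone Laser tumor was taken to vary like the other groups.

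The levels of the 10 genes were also set against the macrophage markers of the same tumor, as the difference between log2(FPKM + 1) of a gene and the mean over the 16 markers. That mean was 5.50 and 5.37 (Laser), 5.70 and 5.81 (PC-La) and 4.72 and 5.42 (SePC-La). Of the markers, Apoe, C1qa, C1qc and Cx3cr1 met the criterion as lower in SePC-La than in PC-La, beside 1.8% of all genes tested. With each of the 4 tumors left out in turn, C1qa came to -0.49 and C1qc to -0.52 at the weakest, each meeting the criterion in 1 of 4 fits, Apoe met it in 2 of 4 and Cx3cr1 in 0 of 4. Relative to the markers, all 10 genes were higher in both SePC-La tumors than in both PC-La tumors. The same held for 72.2% of all genes tested, as the marker mean lay lower in SePC-La, and the reverse held for none of the 10 genes and 3.18% of all genes. PC-La lay below Laser in 6 of the 10 (68.7% of all genes) and above it in Spp1 alone (3.42%). SePC-La lay above Laser in 6 of the 10 (28.5% of all genes) and below it in 0 (0.931%). The spacing differed between genes. Arg1 stood at -1.07 and -0.95 in PC-La and at 2.43 and 1.34 in SePC-La, while Spp1 stood at 4.42 and 4.41 in the former and at 4.94 and 4.44 in the latter.

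**Figure D5:**
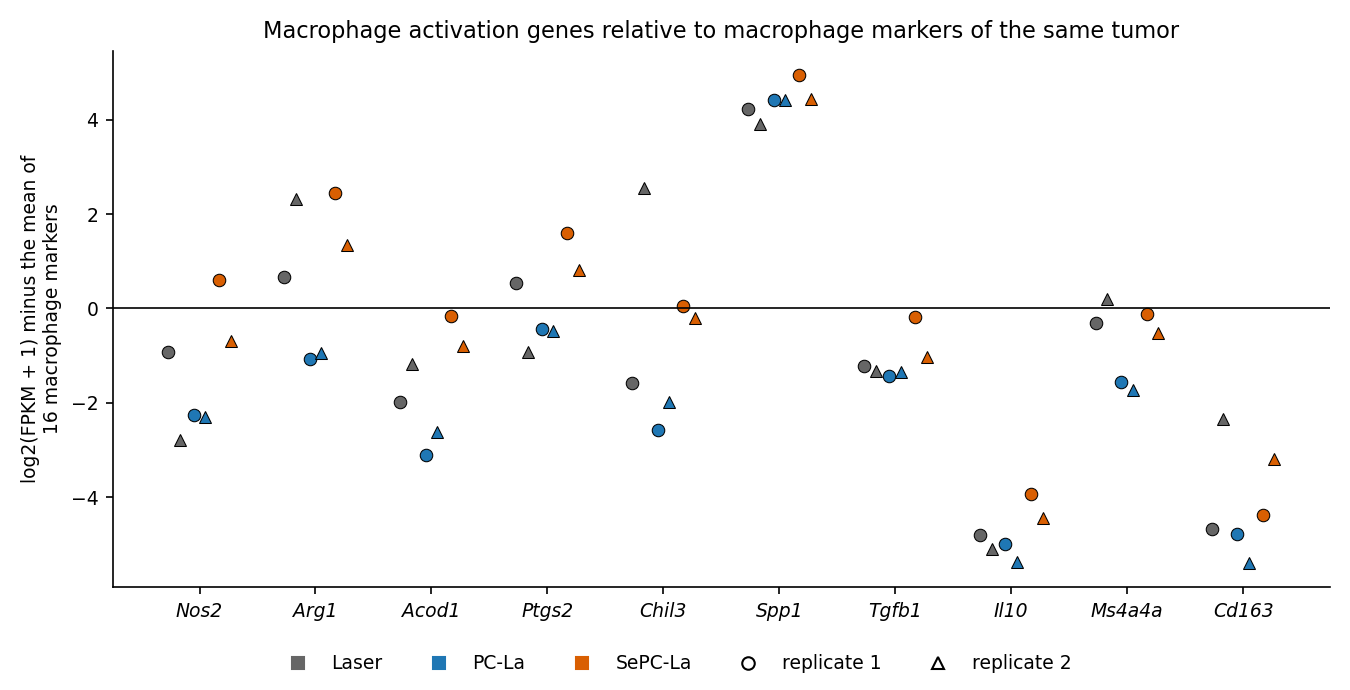
Log2(FPKM + 1) of each of the 10 genes minus the mean of 16 macrophage markers in the same tumor (vertical axis), coloured by group (circle, replicate 1; triangle, replicate 2). The SePC-La tumors lie above the PC-La tumors for all 10 genes, widely for Arg1 and narrowly for Spp1, where PC-La has 4.42 and 4.41 and SePC-La has 4.94 and 4.44.

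Other genes of the same programmes were counted by list. Of 23 classical activation genes 19 were tested. In PC-La against Laser, Cxcl9 and Cxcl10 were among those that rose and 2 fell (Fpr2 and Marco), beside 0.866% and 0.424% of all genes tested. Cxcl9, an interferon gamma-induced chemokine, had 32.7 and 42.6 FPKM (Laser), 77.8 and 129 (PC-La) and 44.6 and 65.5 (SePC-La), with a log2 fold change of 1.40 in PC-La (SE 0.30, limma adjusted p = 0.547). Both chemokine genes are known targets of interferon, and none of Nos2, Acod1 and Ptgs2 met the criterion as higher there. In SePC-La against Laser none of the 19 met the criterion, with a median log2 fold change of 0.52, where it was 0.55 in PC-La against Laser and -0.05 in SePC-La against PC-La. Against PC-La, Fpr2 (a formyl peptide receptor) and Marco (a scavenger receptor) were higher in SePC-La, and Fpr2 had 5.60 and 9.84 FPKM (Laser), 2.57 and 3.25 (PC-La) and 8.12 and 8.62 (SePC-La). With single tumors left out, Cxcl9 met the criterion in 4 of 4 fits of PC-La against Laser, Cxcl10 and Fpr2 in 2 of 4 and Marco in 1 of 4, and in SePC-La against PC-La Fpr2 met it in 4 of 4 and Marco in 0 of 4.

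Of 23 alternative activation genes 16 were tested, and none met the criterion in PC-La against Laser. In SePC-La, Il1rn, Ccl24 and Vegfa rose against Laser and were also higher than in PC-La, beside 0.544% and 1.18% of all genes tested. Il1rn encodes the interleukin-1 receptor antagonist. It had 5.03 and 2.64 FPKM (Laser), 3.19 and 4.08 (PC-La) and 12.3 and 8.84 (SePC-La), a log2 fold change of 1.29 against Laser (SE 0.28, limma adjusted p = 0.376) and 1.31 against PC-La (SE 0.28, limma adjusted p = 0.126). With single tumors left out, all 3 met the criterion against PC-La in 4 of 4 fits, and against Laser Il1rn did so in 3 of 4 and Ccl24 and Vegfa in 2 of 4. The mannose receptor gene Mrc1, named after its values were seen, lay lower in both PC-La tumors than in both Laser tumors without meeting the criterion, and its SePC-La tumors were far apart, with 26.7 and 29.7 FPKM (Laser), 14.5 and 14.3 (PC-La) and 10.4 and 29.5 (SePC-La). Retnla, a classical marker of the alternative state in mice and also named after its values were seen, was at most 0.961 FPKM in any tumor.

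Around the members' own pathways, the arginine list (9 of 13 genes tested), the osteopontin receptors (8 of 8), the citric acid cycle genes near Acod1 (10 of 11), the chitinase-like family (1 of 7) and the Ms4a family other than Ms4a4a (8 of 14) had no gene that met the criterion in any comparison. Of the prostaglandin list (8 of 16 tested), Hpgds, a prostaglandin D synthase, was lower in SePC-La than in PC-La (1 of 4 fits with a tumor left out) and no other gene met it. Of the 10 interleukin-10 pathway genes, Nfil3 was higher in SePC-La than in PC-La, with 20.8 and 15.05 FPKM (Laser), 14.3 and 14.2 (PC-La) and 34.1 and 33.0 (SePC-La) (log2 fold change 1.18, SE 0.16, limma adjusted p = 0.0977). In SePC-La against PC-La, 1.18% of all genes tested were higher at the criterion and 1.8% lower.

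The transforming growth factor list (19 of 23 tested) had calls in both directions, while Tgfb1 itself did not meet the criterion. Thbs1, whose product thrombospondin 1 activates latent transforming growth factor, fell in PC-La and was higher in SePC-La than in PC-La. It had 76.5 and 53.2 FPKM (Laser), 21.1 and 27.2 (PC-La) and 115 and 86.6 (SePC-La), with log2 fold changes of -1.38 (SE 0.23, limma adjusted p = 0.419) and 2.01 (SE 0.23, limma adjusted p = 0.0763). Tgfb3 and the receptor genes Tgfbr1 and Tgfbr2 were lower in SePC-La than in PC-La. At the criterion 1.8% of all genes tested were lower there and 1.18% higher, and 0.424% were lower in PC-La against Laser. The fibroblast markers, whose FPKM summed to 1714 and 1562 (PC-La) and to 117 and 631 (SePC-La), had 0 of 6 genes that met the criterion between these groups. In 4 of the 6 (Col3a1, Dcn, Lum and Pdgfra) both SePC-La tumors lay below both PC-La tumors, as they did in 39.5% of all genes tested. Tgfbr1 and Tgfbr2 each met the criterion in 1 of 4 fits with a tumor left out, and Tgfb3 in 4 of 4. The part of fibroblasts was not tested.

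Of the haem and haptoglobin list (10 of 12 tested), Hmox1, which encodes the haem-degrading enzyme haem oxygenase 1, fell in PC-La against Laser and was higher in SePC-La than in PC-La. It had 265 and 117 FPKM (Laser), 83.4 and 50.4 (PC-La) and 369 and 315 (SePC-La). The log2 fold changes were -1.43 (SE 0.43, limma adjusted p = 0.753) and 2.38 (SE 0.43, limma adjusted p = 0.126). At the criterion 0.424% of all genes tested were lower in the former comparison and 1.18% higher in the latter. With single tumors left out, Hmox1 met the criterion in 2 of 4 fits against Laser and in 4 of 4 of SePC-La against PC-La. Slc48a1, a haem transporter gene, was also higher in SePC-La than in PC-La (2 of 4 fits). The erythroid markers summed to 127 and 13.6 FPKM (Laser), 263 and 361 (PC-La) and 613 and 932 (SePC-La). Of the 5, 3 rose in PC-La against Laser, where Hmox1 fell, beside 0.866% of all genes tested. All 5 rose in SePC-La against Laser, beside 0.544%. Hba-a2 alone was higher in SePC-La than in PC-La, where Hmox1 was higher too, beside 1.18%. With all tumors the log2 fold change of Hbb-bs in PC-La against Laser was 2.82 (SE 0.98, limma adjusted p = 0.753). That of Hba-a2 in SePC-La against PC-La was 1.53 (SE 0.56, limma adjusted p = 0.187). With single tumors left out, the former ran from 1.34 to 4.29 and the latter from 1.02 to 2.03. Neither call was kept in every such fit, nor was that of Hbb-bt in PC-La against Laser, while that of Alas2 was.

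Markers of other cells that can carry the 10 genes differed between the groups. The 12 neutrophil markers summed to 170 and 44.2 FPKM (Laser), 161 and 95.8 (PC-La) and 353 and 481 (SePC-La), led by S100a9 and S100a8. In SePC-La 4 of the 8 tested rose against Laser (S100a8, Lcn2, Retnlg and S100a9) and 4 were higher than in PC-La (Mmp8, Lcn2, S100a8 and Retnlg), while Mmp8 fell in PC-La against Laser. The shares of all genes tested were 0.544% and 1.18% higher and 0.424% lower. With single tumors left out, S100a8 met the criterion in 4 of 4 fits of each comparison, S100a9 in 2 of 4 against Laser, Lcn2 in 2 of 4 against Laser, and Retnlg in 1 of 4 of each. The order of these sums was near that of Ptgs2 and Nos2, with SePC-La highest and Laser replicate 2 lowest. Of this list, Ly6g and the granule genes Camp and Ltf were under 1 FPKM in every tumor, and none was at 0 in all. The 8 monocyte markers summed to 490 and 303 FPKM (Laser), 611 and 609 (PC-La) and 260 and 320 (SePC-La). Fn1 alone made up 351 and 134 FPKM (Laser), 500 and 472 (PC-La) and 106 and 130 (SePC-La) of these sums. Ly6c1 went the other way, with 55.0 and 102, 27.4 and 38.0, and 83.7 and 104 FPKM. The order of the sums is therefore not that of every monocyte marker. Within that list Plac8 rose in SePC-La against Laser (0.544% of all genes tested did), from 0.95 to 1.42 on the log2 scale with single tumors left out. Fn1 rose in PC-La against Laser (0.866%), from 0.47 to 1.85. F10 and Ly6c1 fell there (0.424%) and were higher in SePC-La than in PC-La (1.18%), like Arg1, while Fn1, Vcan and Ccr2 were lower (1.8%). Of these, the calls of F10 and Ly6c1 against Laser and of Ccr2 were kept in 2 of 4 fits with a tumor left out and that of Vcan in 3 of 4. Mast cell markers were high in a single tumor of Laser and of SePC-La (152 and 2.81 FPKM in Laser, 1.76 and 119 in SePC-La). The dendritic cell list summed to at most 32.6 FPKM, the T cell list to at most 11.8 and the eosinophil list to at most 1.46, and the keratinocyte list to at most 0.666 with 4 of its 6 genes at 0 in all tumors. The endothelial sums ran from 17.6 to 31.8 FPKM. The carcinoma list ran from 352 to 416, with Epcam at most 0.129 FPKM. The part of these cell types in the values of the 10 genes was not tested.

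For each of the 9 genes, the tested genes with the most similar profile were taken by the root-mean-square difference of log2(FPKM + 1) over the 6 tumors after centring each gene, as a description. Nearest to Arg1 was the chemokine gene Ccl6, at a difference of 0.12 where Arg1 itself varied by 1.13, followed by Marco at 0.33. Ccl6 had 79.9 and 242 FPKM (Laser), 31.9 and 31.0 (PC-La) and 164 and 148 (SePC-La), the order of Arg1 in every tumor but the PC-La pair. Nearest to Acod1 were Steap1 (0.09) and the coagulation factor gene F10 (0.16), and nearest to Nos2 were Rab44 and Pgf (both 0.16). Ptgs2 had the neutrophil chemokine receptor gene Cxcr2 (0.08), which is on the neutrophil list, and Mxd1 (0.13) nearest to it. Nearest to Ms4a4a were Gzmf (0.07) and Sned1 (0.16), and to Cd163 the acute-phase gene Saa3 (0.25) and Gpx3 (0.35). Chil3 had Msln (0.48) and Ms4a8a (0.56), a member of the Ms4a family with 18.5 FPKM in Laser replicate 2 and at most 4.59 in the other tumors. Spp1 had Ptpn6 (0.04) and Mfng (0.05), and Tgfb1 had Ndufaf5 (0.04) and Zkscan6 (0.05), small differences in genes that vary little.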

How the data were processed

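RNA from 6 irradiated LLC tumors (Laser, PC-La and SePC-La, 2 each) was sequenced. The authors deposited 1 table of FPKM values, a column per sample; neither the file nor the paper names the unit. The submitters' processing notes name HISAT2 2.0.5, HTSeq 0.9.1, DESeq 1.30.0 and mm9. Multiplied by the merged exon lengths of GENCODE M21 (GRCm38), 97.7% to 97.9% of the values above 0 in a sample were whole reads (tolerance 0.01), which gave the totals; those of Nos2 were not, and it has no read number. The table holds no coordinates; those given are GENCODE M21's, and promoter sequences are RefSeq's (GRCm38.p6). Whether strand was used in counting is not given in the sources used here, so overlapping genes cannot be told apart.

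Values were used as deposited. limma 3.58.1 (R 4.3.3) was fitted to log2(FPKM + 1) with a mean per group, trend and robust moderation, on the 10853 genes whose mean FPKM was 1 or more, and was tested on simulated data. Error was shared by all 6 samples. The genes and lists were chosen with earlier results of these data known; from each list, at most 4 genes per comparison that met the criterion are named, by smallest p, and for each of the 9 genes tested the 2 nearest profiles. Some genes of the lists are not reported here. Alternatives were a pseudocount of 0.1, no filter, a minimum of 5 FPKM, median-ratio scaling, only the 4 samples compared, the replicate number as a block, and each sample left out. limma voom on recovered reads was chosen after seeing the data. Other steps used Python 3.11.15 (pandas 2.3.3, SciPy 1.17.1, matplotlib 3.10.9).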

Additional observations from a re-analysis of the deposited data

How the results depend on the processing

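Of the fold changes of the 9 genes tested (Il10, under the filter, was fitted only without it), 177 values under settings other than leaving out a sample kept their direction and their side of the criterion, 6 newly met it and 0 changed sign; with 1 sample left out, 90 did so, 9 newly met it with the same sign and 9 changed sign, of which Chil3 in SePC-La against Laser without Laser replicate 2 also newly met it. For PC-La against Laser, Nos2 ran from -1.09 (Laser replicate 2 left out) to 0.89 (replicate 1 left out) and Ptgs2 from -0.73 to 0.85, in the same order. For SePC-La against Laser, Arg1 ran from -0.73 (without Laser replicate 1; -0.17 without SePC-La replicate 1) to 0.78, Chil3 from -2.93 (without Laser replicate 1) to 1.07 (replicate 2 left out), and Cd163 from -1.74 to 0.45 (likewise; 0.28 without SePC-La replicate 1). For SePC-La against PC-La, Tgfb1 ran from -0.0037 (without PC-La replicate 1) to 0.19 and Cd163 from -0.32 (without SePC-La replicate 2) to 1.54. A lone sample was assumed to vary like the other groups.

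With 1 sample left out, the number of the 10 genes that met the criterion ran from 2 to 5 for PC-La against Laser, from 0 to 3 for SePC-La against Laser and stayed at 2 for SePC-La against PC-La. Of all genes tested it ran from 71 to 664, from 73 to 253 and from 169 to 584, the extremes being without Laser replicate 1 (664 and 253), PC-La replicate 2 (71), SePC-La replicate 1 (73 and 169) and SePC-La replicate 2 (584), beside 140, 74 and 323 with all samples. A minimum of 5 FPKM, which tests fewer genes, gave 68, 46 and 186. A pseudocount of 0.1 gave 129 for SePC-La against Laser (75 higher and 54 lower, where 59 and 15 stood with a pseudocount of 1) and 488 for SePC-La against PC-La. Median-ratio scaling gave 158 higher and 154 lower there, in place of 128 and 195. limma voom on recovered reads, chosen after seeing the data, gave 220 for PC-La against Laser and 131 for SePC-La against Laser; the cause was not tested. The fit of the 4 samples compared called 4 of the 10 genes in SePC-La against PC-La in place of 2, as it leaves out the spread of Laser.

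The replicate number as a block called 1 of the 10 genes in SePC-La against Laser (Nos2) in place of 0, and 3 in place of 2 in SePC-La against PC-La (Nos2 again), and changed no other call among them. Samples with the same number did not deviate together (the replicate differences correlated across genes at 0.09 between PC-La and Laser, -0.43 between SePC-La and Laser, and -0.18 between the treated groups), so the numbers do not pair the samples. With 2 samples per group and 5 to 22 reads on Il10, small changes of low genes could not be seen.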
